A study of Mus musculus with 8 samples.

Results

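Cytosolic ribosomal proteins were examined in single mouse oocytes that carried a conditional knockout of the histone methyltransferase gene Setd1b and in control oocytes. The genes were chosen by a rule on symbols, set with earlier results of these data known. The rule took every gene of the deposited count table with an Rpl or Rps symbol and number, and Rplp0, Rplp1, Rplp2 and Rpsa. Paralogs that end in a letter such as l were included. Ribosomal protein S6 kinases and genes named as pseudogenes were left out. The rule gave 87 of the 37224 genes in the table, 51 of the large and 36 of the small ribosomal subunit. The RefSeq gene table annotates 82 of them as protein coding and 5 as pseudogenes, namely Rps4l, Rps3a2, Rps3a3, Rpl6l and Rps12l1.

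The ribosome joins a large subunit, which forms peptide bonds, to a small subunit, which reads the mRNA, and nearly all ribosomal proteins enter each ribosome in a single copy. Most ribosomal protein mRNAs begin with a run of pyrimidines, the terminal oligopyrimidine motif, through which their translation answers to the mTOR pathway. Growing oocytes build a large store of ribosomes, and transcription then stops, so a mature egg lives on stored ribosomes and mRNA until the embryo transcribes its own genes.

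The knockout group held 4 oocytes of superovulated Setd1bGdf9cKO mice, and the control group held 4 oocytes of superovulated control mice. Gdf9 encodes a growth factor of the oocyte, and the labels give no further detail of the recombinase, of the deleted part of Setd1b, of the alleles that controls carry, or of age and strain. All were oocytes arrested at the second meiotic metaphase (MII oocytes). Each was lysed on its own, and its RNA was copied by a SMARTer Ultra Low protocol that starts from the poly(A) tail, so that a value reflects the amount of an mRNA and how well its tail was primed. Nothing in the labels says whether oocytes of a group came from different females, and p-values therefore measure the spread between these oocytes.

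The libraries held 9488899 to 11313502 assigned counts in knockout and 11029602 to 13519404 in control oocytes. Setd1b had 4.42, 5.05, 2.96 and 3.54 CPM (counts scaled to the size of the library) in knockout replicates 1 to 4, against 10.7, 12.8, 9.22 and 10.9 CPM in control replicates 1 to 4. The groups did not overlap, and the log2 fold change was -1.44 ± 0.41 (SE, n = 4 per group; adjusted p = 0.0221, edgeR's quasi-likelihood test). Without knockout replicate 3, knockout replicate 4 or control replicate 2 the adjusted p was 0.0525, 0.0503 and 0.0560. All 12 oocyte markers were measured, with summed levels of 8883 to 15330 CPM in knockout and 7968 to 11650 CPM in control oocytes. Of them 5 were higher (41.7%) and 1 lower (8.33%), against 13.6% and 12.2% of all tested genes. Padi6, Nlrp5 and Zp2 had the smallest p, with log2 fold changes of 2.52, 1.66 and 3.03, and the lower gene was Ooep (-0.86). The median log2 fold change of the 12 markers was -0.09, and 7 of them lay below 0. CPM are scaled by library total and by the trimmed mean of M-values (TMM), whose factors were 1.07 to 1.22 in knockout and 0.800 to 0.947 in control libraries. Scaled by library totals alone, all tested genes had a median log2 fold change of 0.49, against 0.10 with TMM.

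Promoter windows were taken from RefSeq (GRCm38.p6), which had entries for 62 of the 87 genes, 74 windows in all. They are shown for 6 of the genes higher in knockout oocytes, picked as examples after their values were seen. Rps27l, the member with the most counts over both groups, is shown too and was lower in knockout oocytes. Each line gives 80 bases before and 20 bases from the annotated start on, 5′ to 3′ on the gene's strand. Capitals mark CCGGAAG, the core of a site for ETS factors, on either strand, and every run of at least 8 pyrimidines. Runs are marked over the whole line and not only near the start. Rpl34 and Rps27l have 2 windows each, and only the named window is shown. Over the same stretch, the other window of Rpl34 has such a run and no CCGGAAG, and that of Rps27l has neither.
Rpsa, chr9:120127686-120127785, plus strand: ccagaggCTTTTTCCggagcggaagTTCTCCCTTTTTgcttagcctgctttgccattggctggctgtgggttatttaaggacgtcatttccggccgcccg
Rps3, chr7:99483690-99483789, minus strand: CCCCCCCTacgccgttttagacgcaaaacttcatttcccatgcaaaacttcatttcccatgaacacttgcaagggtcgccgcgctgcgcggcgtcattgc
Rps9, chr7:3703961-3704060, plus strand: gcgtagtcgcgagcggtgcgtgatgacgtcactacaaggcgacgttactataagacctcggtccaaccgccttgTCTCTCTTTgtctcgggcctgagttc
Rps25, chr9:44407634-44407733, plus strand: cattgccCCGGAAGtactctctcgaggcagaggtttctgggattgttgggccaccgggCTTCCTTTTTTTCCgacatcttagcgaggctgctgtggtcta
Rpl18, chr7:45717991-45718090, plus strand: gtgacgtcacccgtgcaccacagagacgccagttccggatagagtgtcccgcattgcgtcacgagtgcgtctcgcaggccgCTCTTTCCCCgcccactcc
Rpl34, second window, chr3:130730318-130730417, minus strand: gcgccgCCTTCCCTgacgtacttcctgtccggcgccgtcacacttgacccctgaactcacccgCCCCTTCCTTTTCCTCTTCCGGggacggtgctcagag
Rps27l, first window, chr9:66946006-66946105, plus strand: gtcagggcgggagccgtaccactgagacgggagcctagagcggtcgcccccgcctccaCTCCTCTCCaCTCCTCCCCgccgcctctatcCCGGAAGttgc

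The windows were searched for short motifs known from ribosomal protein promoters, and shares are given without a test. Over the whole entry, 250 bases before to 50 after the start, CCGGAAG was found on either strand in 27 of 74 ribosomal protein windows (36.5%), against 8.86% of all 32851 windows. The GC box GGGCGG was in 60.8% of them against 35.7% of all windows, AAGATGG, a core of YY1 sites, in 16.2% against 6.34%, and TATAAA in 9.46% against 13.6%. A run of at least 8 pyrimidines between base -10 and base 20 around the start was found in 32.4% against 11.2%. CCGGAAG was in 6 of the 13 windows of genes higher in knockout oocytes (46.2%), in 13 of the 32 windows of genes that were tested and did not pass (40.6%), and in 7 of the 27 windows of genes too scarce to test (25.9%). The runs of pyrimidines stood in 38.5%, 34.4% and 29.6% of the same windows. These are matches of letters, they can overlap one another, and none of them was measured as a binding site here.

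Counts assigned to the ribosomal protein genes made up a small part of these libraries, and a larger part in the knockout. Reads that map to several places were not counted, so the shares given here can understate the mRNA of these genes. The 87 genes together took 0.162%, 0.191%, 0.163% and 0.150% of all counts in knockout replicates 1 to 4, against 0.0860%, 0.0797%, 0.0722% and 0.0963% in control replicates 1 to 4. The lowest knockout share was above the highest control share. More members were seen as well: 56 to 64 members had at least 10 counts in a knockout library and 36 to 43 in a control library, while 10 to 16 members had no count in a knockout library and 20 to 22 had none in a control library. Across the whole table, 11190 to 12153 genes had at least 10 counts in knockout and 9913 to 10714 in control libraries, so that detection of genes in general moved with the genotype too; its part in the result was not tested.

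Of the 87 genes, 56 passed the filter on low counts, 34 of the large and 22 of the small subunit, and the other 31 were too scarce to test. At an adjusted p under 0.05, 18 of the tested genes were higher in knockout oocytes and 2 were lower, and 36 did not pass. The 18 higher genes are 32.1% of those tested, where 13.6% of all 11066 tested genes were higher, and the 2 lower genes are 3.57%, where 12.2% of all tested genes were lower. A member that entered the test through the knockout libraries alone was bound to look higher, so these shares describe the tested genes and not the family. The median log2 fold change of the tested members was 1.47, against 0.10 for all tested genes, and single members ran from -2.36 for Rpl17 to 4.03 for Rps3. Over all 87 genes, tested or not, the knockout mean was higher in 66 and lower in 16, and 5 had no count at all, while over the whole table the mean was higher in 10911 genes and lower in 7570. After removal of a length trend 14 members were higher and 5 lower, and on library totals alone 27 were higher and 1 lower. Over all tested genes the same settings gave 1018 higher and 2331 lower with the length trend removed, 2377 and 510 with library totals, and 1503 and 1347 in the fit reported here.

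**Figure D1:**
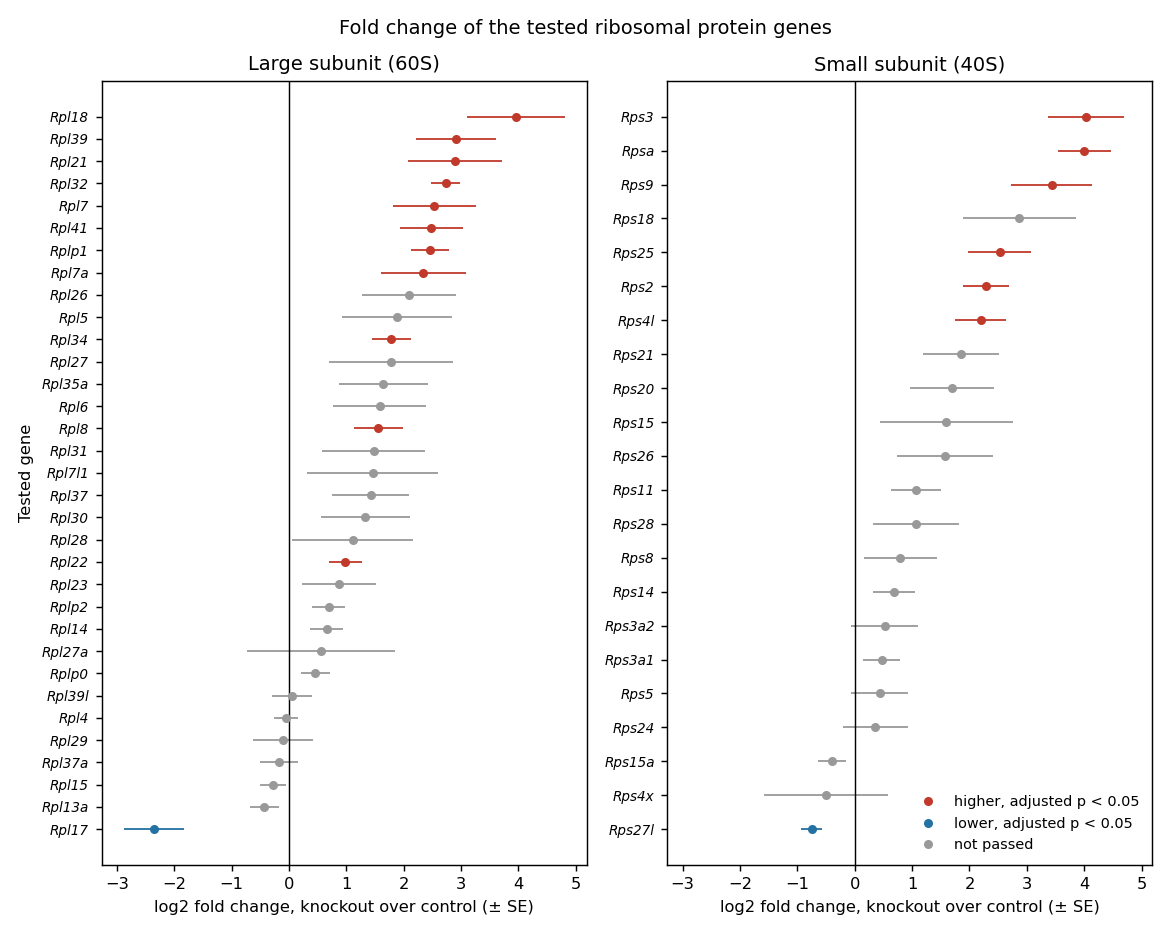
The log2 fold change of knockout over control with its SE (x axis) is plotted for 33 of the 34 tested genes of the large subunit (left) and all 22 of the small subunit (right), in red where higher, blue where lower and grey where the test was not passed. Most points lie right of 0 in both panels, from -2.36 for Rpl17 to 4.03 for Rps3.

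In 27 of the 56 tested members every knockout library was above every control library, where this held for 17.7% of all tested genes. In 2 every knockout library was below, where this held for 13.6% of all tested genes. Here too, a member that entered the test through the knockout libraries alone was bound to look higher. Of the 27, 18 belong to the large and 9 to the small subunit. The 2 lower ones are Rpl17 and Rps27l. Other members ran through both groups, and 9 of the 56 had a fold change below 0.

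For the large subunit, 12 genes of 34 passed as higher (35.3%) and 1 as lower. The acidic stalk, which recruits elongation factors to the ribosome, is made of Rplp0, Rplp1 and Rplp2, of which only Rplp1 passed. Rplp1 (ENSMUSG00000007892, chromosome 9, 61913284 to 61914538, mm10) had 55.7, 55.4, 52.4 and 42.1 CPM in knockout replicates 1 to 4, against 11.4, 7.10, 5.27 and 13.7 CPM in control replicates 1 to 4. The groups lay far apart (log2 fold change 2.46 ± 0.33, SE; adjusted p = 0.000412). Its partner Rplp2 had 23.8, 23.1, 20.6 and 18.7 CPM in knockout and 12.9, 16.4, 9.55 and 14.5 CPM in control oocytes, without overlap but at an adjusted p of 0.101 (log2 fold change 0.69 ± 0.29). Rplp0, which anchors the pair, had 43.9, 62.0, 48.1 and 52.5 CPM in knockout and 38.9, 46.9, 22.1 and 42.0 CPM in control oocytes. Its groups overlapped, and its log2 fold change of 0.46 ± 0.26 did not pass (adjusted p = 0.217). Without the length trend Rplp0 was at -0.12 and Rplp2 at 0.11, while on library totals alone both passed as higher, Rplp0 at 0.87 (adjusted p = 0.0284) and Rplp2 at 1.09 (0.0182).

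Rpl32 had the smallest p of all members. This large-subunit gene (ENSMUSG00000057841, chromosome 6, 115805505 to 115808747) had 144, 196, 191 and 149 CPM in knockout replicates 1 to 4, against 34.0, 25.6, 15.4 and 27.6 CPM in control replicates 1 to 4. Every knockout oocyte was above every control oocyte, and the log2 fold change was 2.73 ± 0.26 (SE; adjusted p = 5.28e-05). Rpl41, a very short basic peptide at the face between the subunits (ENSMUSG00000093674, chromosome 10, 128548114 to 128549305), had 230, 296, 190 and 160 CPM in knockout and 28.1, 16.2, 13.3 and 99.1 CPM in control oocytes. Control replicate 4 stood well above the other control oocytes and still below each knockout oocyte. The log2 fold change of Rpl41 was 2.49 ± 0.55 (adjusted p = 0.00709), and 3.52 without control replicate 4.

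Rpl34 and Rpl18 complete the members of the large subunit with the smallest p. Rpl34, whose promoter is shown above, had 23.5, 28.0, 20.2 and 19.6 CPM in knockout and 9.90, 5.59, 5.02 and 5.996 CPM in control oocytes, without overlap (log2 fold change 1.79 ± 0.34, adjusted p = 0.00324). Rpl18 had 3.00, 3.09, 3.32 and 1.49 CPM in knockout oocytes, against 0.330, 0.0798, 0.165 and 0.0999 CPM in control oocytes. Only 7 counts of Rpl18 were found in the 4 control libraries together and 134 in the knockout libraries, so the size of its log2 fold change, 3.96 ± 0.85, is loosely fixed (adjusted p = 0.00589).

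Further higher genes of the large subunit included Rpl39, Rpl21, Rpl7, Rpl7a, Rpl8 and Rpl22. Rpl39, a small protein that lines the exit tunnel of the growing peptide, averaged 4.98 ± 1.303 CPM in knockout and 0.656 ± 0.310 CPM in control oocytes (SD, n = 4 each). Rpl8, which lies near the site of peptide bond formation, averaged 20.2 ± 4.05 CPM in knockout and 6.85 ± 3.49 CPM in control oocytes. Rpl21, Rpl7 and Rpl7a were scarce, with 21, 41 and 14 counts over the 4 control libraries and log2 fold changes of 2.90, 2.54 and 2.35. The call of Rpl7a was lost whichever library was left out (adjusted p 0.05004 to 0.0937). Rpl7 and Rpl21 were lost without knockout replicate 1 (0.0574 and 0.0524) or knockout replicate 2 (0.0746 and 0.0695), and Rpl8 was lost without knockout replicate 1 (0.0617). After removal of the length trend Rpl8 stood at 0.99 (adjusted p = 0.0880) and Rpl7a at 1.77 (0.0834).

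Rpl17 was the only large-subunit gene that passed as lower. Its protein reaches into the wall of the exit tunnel, and the gene lies on chromosome 18 (ENSMUSG00000062328, 75000477 to 75003381). It had 1.57, 2.26, 3.68 and 0.930 CPM in knockout replicates 1 to 4, against 10.4, 9.66, 8.90 and 14.4 CPM in control replicates 1 to 4. The groups did not overlap, the log2 fold change was -2.36 ± 0.53 (SE; adjusted p = 0.00741), and the call held in all 15 alternatives that kept the gene in the test.

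**Figure D2:**
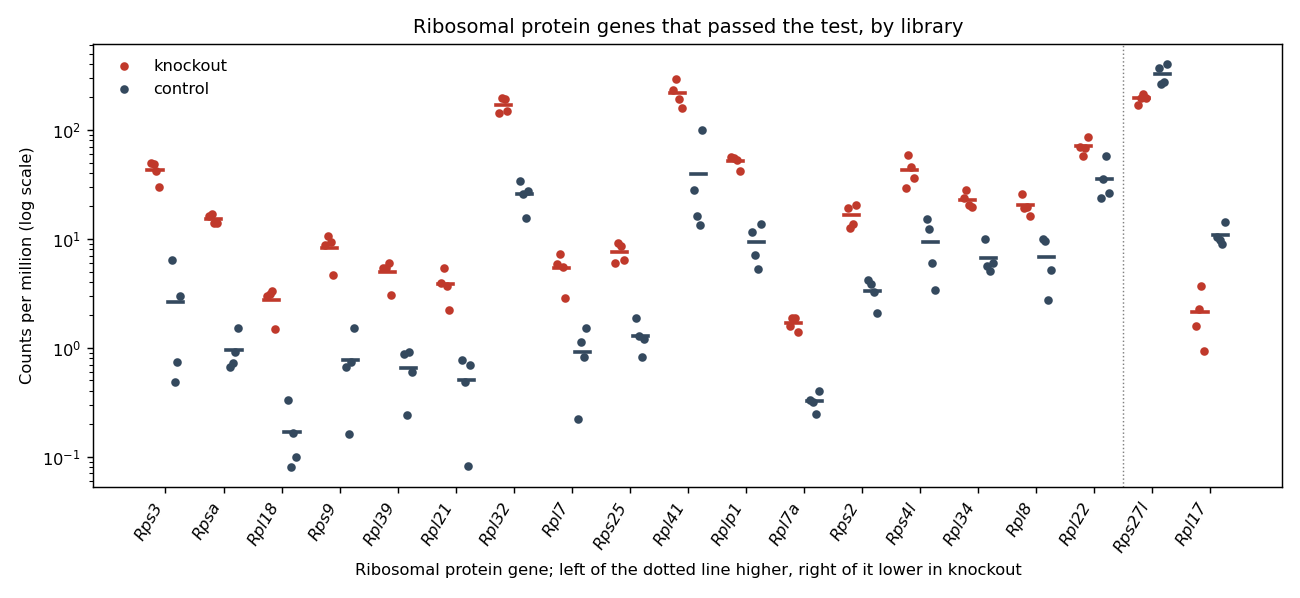
CPM on a log scale (y axis) are plotted by library for 19 of the 20 ribosomal protein genes that passed the test, with knockout oocytes in red left of control oocytes in dark blue and bars at the group means. The 17 genes left of the dotted line were higher in knockout, and Rps27l and Rpl17 right of it were lower. Control replicate 4 of Rpl41, at 99.1 CPM, stands apart from the other control oocytes.

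For the small subunit, 6 genes of 22 passed as higher (27.3%) and 1 as lower. Rpsa sits on the outer face of the small subunit and is also known as the laminin receptor (ENSMUSG00000032518, chromosome 9, 120127766 to 120132369). It had 16.3, 16.9, 14.01 and 13.9 CPM in knockout replicates 1 to 4, against 0.660, 0.718, 0.906 and 1.499 CPM in control replicates 1 to 4. The 4 knockout oocytes were close to each other and far above all control oocytes, and the log2 fold change was 4.00 ± 0.46 (SE; adjusted p = 0.000181).

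Rps3, Rps2 and Rps9 surround the channel through which mRNA enters the small subunit, and the 3 genes were higher together. Rps3 (chromosome 7, 99477896 to 99483738) had 49.3, 48.9, 42.0 and 29.9 CPM in knockout and 6.38, 0.479, 0.741 and 3.00 CPM in control oocytes. Control oocytes differed among themselves by more than 10 times, yet none came near the knockout oocytes. The log2 fold change of Rps3 was 4.03 ± 0.66 (adjusted p = 0.00142), and 4.95 without control replicate 1. Rps2 had 19.0, 12.4, 13.7 and 20.4 CPM in knockout and 4.18, 3.83, 3.21 and 2.10 CPM in control oocytes (log2 fold change 2.29 ± 0.40, adjusted p = 0.00196). Rps9 had 8.70, 10.6, 9.25 and 4.65 CPM in knockout and 0.660, 0.160, 0.741 and 1.499 CPM in control oocytes (log2 fold change 3.43 ± 0.70, adjusted p = 0.00463). None of these 3 genes overlapped between the groups. Rps25, a protein of the small-subunit head that some viral mRNAs need to recruit ribosomes, averaged 7.48 ± 1.54 CPM in knockout and 1.29 ± 0.433 CPM in control oocytes (SD, n = 4 each; log2 fold change 2.53, adjusted p = 0.00618). Of its exon bases 30.0% are shared with Ccdc84, the largest such overlap among the genes that passed.

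Rps4l is a copy related to Rps4x that is annotated in RefSeq as a pseudogene, and it was among the members with more counts. It had 28.9, 59.1, 45.4 and 36.1 CPM in knockout and 15.3, 12.4, 5.93 and 3.40 CPM in control oocytes. The groups did not overlap (log2 fold change 2.20 ± 0.45, adjusted p = 0.00446). Its entry covers 148354656 to 148355598 on chromosome 6, 943 bases without an intron.

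Rps27l stood out in both level and direction. It is a paralog of Rps27 and is known as a target of p53 (ENSMUSG00000036781, chromosome 9, 66946086 to 66949516). It had 171, 198, 212 and 197 CPM in knockout replicates 1 to 4, against 368, 264, 277 and 401 CPM in control replicates 1 to 4. All knockout oocytes lay below all control oocytes, and the log2 fold change was -0.75 ± 0.18 (SE; adjusted p = 0.00974). On library totals alone the adjusted p was 0.0971. Per kilobase of exon Rps27l was the most abundant member when both groups were averaged, at 238 RPKM (CPM divided by exon length in kilobases) in knockout and 401 RPKM in control oocytes. Rpl32 followed with 329 RPKM in knockout and 49.6 RPKM in control oocytes, and Rpl41 with 187 RPKM in knockout and 33.6 RPKM in control oocytes. By these values Rpl32 was above Rps27l in the knockout mean and far below it in the control mean.

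The paralog pairs were compared by uniquely mapped reads per length. Reads that map to several places were not counted, and exon length covers all annotated exons of a gene. An order between copies therefore holds for these values and need not hold for their mRNA. Of the tunnel proteins, Rpl39l had the higher value, at 17.8 RPKM in knockout and 17.2 RPKM in control oocytes. Rpl39 stood at 3.47 RPKM in knockout and 0.458 RPKM in control oocytes. Rpl39l, better known from the testis, had 11.6, 15.7, 18.5 and 13.5 CPM in knockout and 20.8, 9.58, 12.4 and 14.3 CPM in control oocytes. The groups overlapped fully, and its log2 fold change of 0.054 ± 0.34 turned negative after removal of the length trend (-0.51) and in 3 of the 8 fits without a library. Rpl39 had 5.40, 5.42, 6.02 and 3.07 CPM in knockout and 0.880, 0.240, 0.906 and 0.600 CPM in control oocytes (log2 fold change 2.91 ± 0.70, adjusted p = 0.0105). The difference in response between the copies was not tested.

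In 2 other pairs the copy also had more uniquely mapped reads per length. Rps4l reached 44.95 RPKM in knockout and 9.81 RPKM in control oocytes, while Rps4x, the X-linked gene, reached 0.768 RPKM in knockout and 1.10 RPKM in control oocytes. Rps4x had 1.43, 2.03, 0.898 and 0.651 CPM in knockout and 3.41, 0, 0.741 and 3.00 CPM in control oocytes, with full overlap and no call (adjusted p = 0.771). Rps27 had no count in any of the 8 libraries, against 9372 counts of Rps27l in knockout and 14022 in control libraries. Reads of a gene with near-identical pseudogenes map to several places and were not counted, so a member listed at 0 need not have been silent.

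For Rpl22 and Rpl22l1 the longer-known gene had more uniquely mapped reads per length. Rpl22, an RNA-binding protein that restrains its own paralog in other tissues, had 70.1, 57.3, 68.0 and 85.8 CPM in knockout and 23.5, 35.4, 57.1 and 26.5 CPM in control oocytes. Control replicate 3, at 57.1 CPM, was just below the lowest knockout oocyte, at 57.3 CPM. The log2 fold change of Rpl22 was 0.98 ± 0.29 (adjusted p = 0.0272), and the call was lost in 6 of the 8 fits with a library left out, at adjusted p-values up to 0.0816. After removal of the length trend Rpl22 stood at 0.54 (adjusted p = 0.157). Rpl22l1 was too scarce to test, with 19, 15, 8 and 1 counts in knockout and 0, 2, 0 and 8 counts in control libraries.

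Rpl10 joins the large subunit last, and Rpl10l replaces it in male meiosis. Rpl10 had 6, 9, 6 and 6 counts in knockout and 1, 2, 3 and 3 counts in control libraries. Rpl10l had 38, 22, 0 and 0 counts in knockout and 4, 1, 11 and 0 in control libraries, with no pattern by genotype. Rpl3, close to the site of peptide bond formation, had 2, 1, 2 and 1 counts in knockout and 4, 0, 0 and 5 in control libraries, and its muscle paralog Rpl3l had none in any. Rps6, the target of the S6 kinases, had 0, 0, 0 and 3 counts in knockout and 0, 0, 0 and 1 in control libraries. No difference in it was detectable in these counts, which leave out reads that map to several places.

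**Figure D3:**
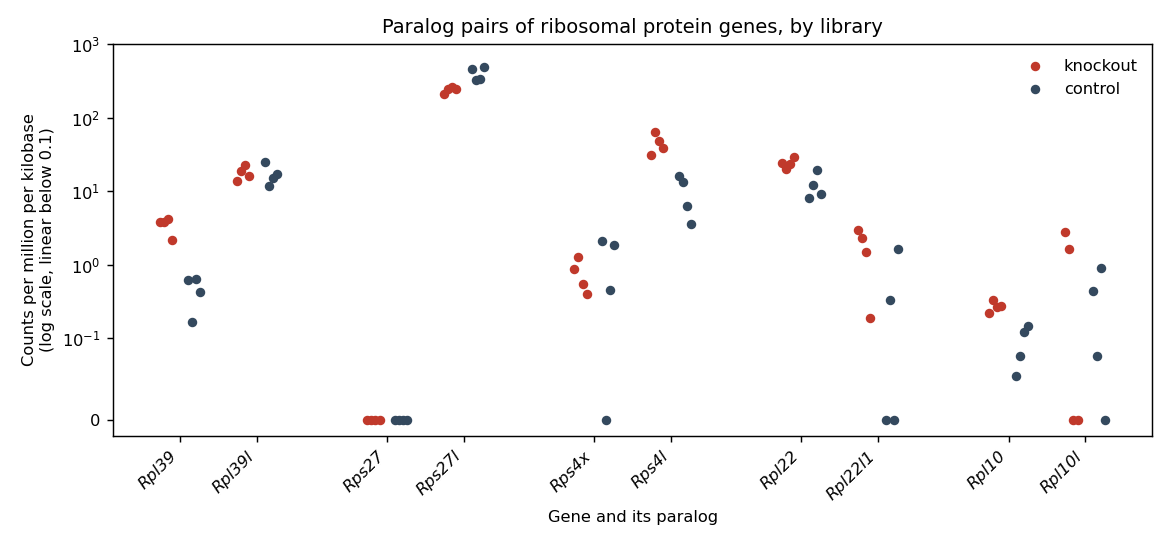
CPM per kilobase of exon (y axis, log scale that turns linear below 0.1) are plotted by library for 5 pairs of a ribosomal protein gene and its paralog, with knockout oocytes in red left of control oocytes in dark blue. Rps27l, Rps4l and Rpl39l lie above Rps27, Rps4x and Rpl39, and Rps27 is at 0 in all 8 libraries.

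The 36 tested genes that did not pass include several abundant ones. Rpl4 averaged 102 ± 19.3 CPM in knockout and 106 ± 23.2 CPM in control oocytes (SD, n = 4 each), and Rpl15 averaged 81.2 ± 22.1 CPM in knockout and 98.6 ± 15.2 CPM in control oocytes. Rps15a, Rpl13a and Rpl37a had log2 fold changes of -0.40, -0.43 and -0.18. Rps18 missed the threshold by the least (log2 fold change 2.87, adjusted p = 0.0506), followed by Rps21 (1.86, 0.0589) and Rpl26 (2.09, 0.0808).

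Among the 31 genes that were too scarce to test, 17 belong to the large and 14 to the small subunit. Rpl23a, Rpl3l, Rpl9, Rps10 and Rps27 had no count in any library, 9 others had at most 3 counts in every library, and 17 reached 4 or more in some library. The knockout mean was the higher in 19 of the 31 and the lower in 7. Rps23 had 6, 19, 0 and 7 counts in knockout libraries and none in the 4 control libraries. Rps29 had 4, 12, 10 and 5 counts in knockout and 0, 2, 0 and 0 in control libraries. At this depth a count of 0 allows up to 0.265 to 0.316 CPM of the library total in knockout and 0.222 to 0.272 in control libraries (3 counts, counting error only).

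The subunits were set against each other by the summed CPM of their genes, as a description without a test. The large subunit summed to 902, 1099, 979 and 868 CPM in knockout replicates 1 to 4, against 511, 470, 394 and 608 CPM in control replicates 1 to 4. The small subunit summed to 429, 530, 546 and 455 CPM in knockout and 532, 391, 368 and 595 CPM in control oocytes. The large-subunit sums of the groups did not overlap, and the small-subunit sums did. The ratio of large to small was 1.79 to 2.10 in knockout and 0.962 to 1.20 in control oocytes.

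This difference in ratio depended on a few abundant genes, among them Rps27l. Rps27l alone held 13.4% of the members' CPM in knockout and 33.8% in control oocytes. Without Rps27l the small subunit summed to 296 ± 43.4 CPM in knockout and 144 ± 44.7 CPM in control oocytes (SD, n = 4 each). The ratio of large to small was then 3.27 ± 0.242 in knockout and 3.57 ± 0.562 in control oocytes, with overlap. The large subunit had leaders of its own: Rpl41 and Rpl32 held 15.1% and 11.7% of the members' CPM in knockout oocytes. Without Rpl41 and Rpl32 the large subunit summed to 573 ± 36.7 CPM in knockout and 431 ± 49.1 CPM in control oocytes. Without all 3 genes the ratio was 1.96 ± 0.180 in knockout and 3.15 ± 0.676 in control oocytes, so the sign of the difference in ratio depends on which leading genes are kept. Gene by gene the subunits had like medians, with log2 fold changes of 1.47 in the large and 1.32 in the small subunit. Scaling matters for the sums too: as a share of all counts the small subunit took 0.0515% to 0.0622% in knockout and 0.0349% to 0.0476% in control libraries, without overlap.

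**Figure D4:**
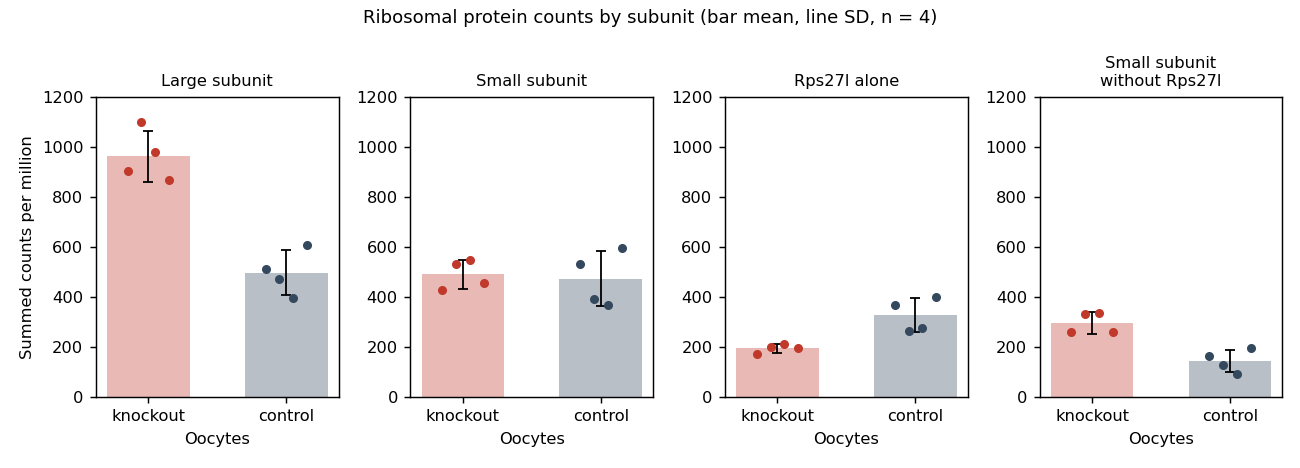
Summed CPM (y axis) of the large subunit, the small subunit, Rps27l alone and the small subunit without Rps27l are plotted for the knockout (red, left bar) and the control (dark blue, right bar) as group means with SD lines and a point for each of the 4 oocytes. The small-subunit bars stand at 490 CPM in knockout and 471 CPM in control, while without Rps27l they stand at 296 CPM in knockout and 144 CPM in control.

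Gene length moved with the fold change over the whole table. All tested genes were split by exon length into 4 classes of like size, with boundaries at 2075, 3580 and 5704 bases. The median log2 fold change was 0.33, 0.22, 0.064 and -0.11 in classes 1 to 4, from shortest to longest. Ribosomal protein genes are short: the tested members had a median length of 1454 bases, against 3580 for all tested genes, and 39 of the 56 fell in the shortest class. In that class 30.8% of the members and 17.7% of all tested genes were higher, and 5.13% of the members and 8.28% of all tested genes were lower. In class 2, 4 of 12 members were higher (33.3%), where 16.6% of all tested genes were. Once a length trend was taken out of each library, the median log2 fold change was 0.93 for the members and -0.22 for all tested genes. Taking out the trend also re-centres each library, so shifts under it are not of length alone.

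**Figure D5:**
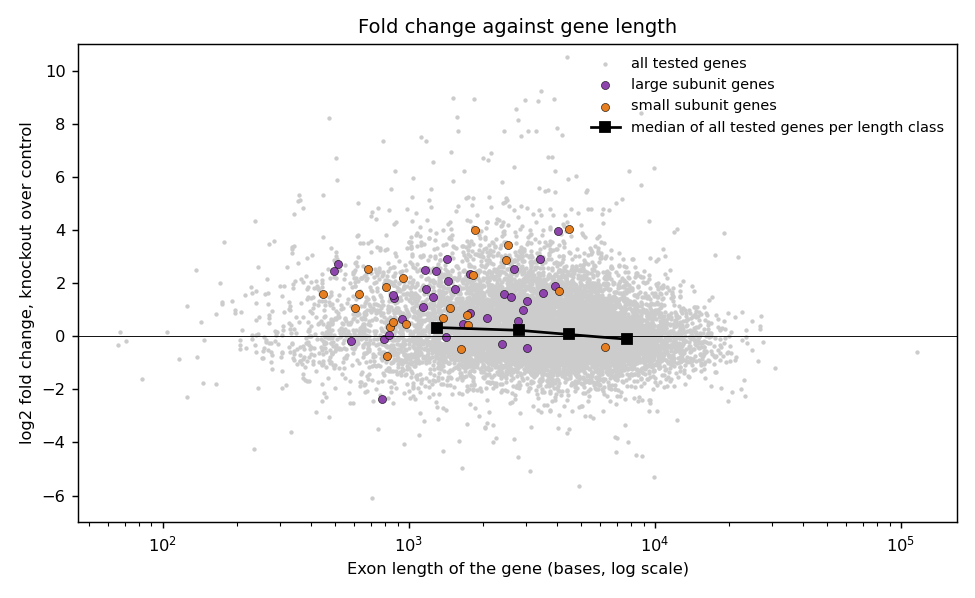
The log2 fold change of knockout over control (y axis) is plotted against exon length (x axis, log scale) for all 11066 tested genes in grey, with large-subunit genes in purple, small-subunit genes in orange, and squares at the median of each length class. The medians run from 0.33 in the shortest to -0.11 in the longest class, and most ribosomal protein genes lie among the shorter genes and above the medians.

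Ribosomal proteins of the mitochondrion, a separate family encoded in the nucleus, were also higher in part. The fit tested 71 of 77, of which 21 were higher (29.6%, against 13.6% of all tested genes). The median log2 fold change was 0.71, and 0 were lower, against 12.2% of all tested genes. In 26 of the 71 every knockout library was above every control library, against 17.7% of all tested genes. In 4 every knockout library was below, against 13.6% of all tested genes. Of the mitochondrial family 3 genes were lower at an unadjusted p under 0.05 in edgeR and 2 at an adjusted p under 0.05 in DESeq2. The 3 with the smallest p were Mrpl9, at 235 ± 49.2 CPM in knockout and 44.4 ± 10.4 CPM in control oocytes (SD, n = 4 each), Mrpl39 (log2 fold change 4.19) and Mrpl22 (3.31). Another list held 11 tested genes that act in translation elongation or termination or are named for it. Of these 6 were higher (54.55%) and 0 lower, against 13.6% and 12.2% of all tested genes (median 0.72). The higher ones were Eef2, Eef1d, Eef1b2 and, listed for its symbol only, Eef1e1, and Etf1 and Gspt2, which act when translation ends. Eef2, which moves the ribosome along the mRNA, averaged 37.6 ± 8.32 CPM in knockout and 13.1 ± 5.97 CPM in control oocytes, and Eef1d and Eef1e1 had log2 fold changes of 1.53 and 1.00.

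Genes that make ribosomes were counted against the shares of all tested genes given above, 13.6% higher and 12.2% lower. Of 56 tested genes for assembly of the small subunit, 16 were higher (28.6%) and 3 lower (5.36%), with a median log2 fold change of 0.59. Utp4 and Emg1, which act on the small-subunit rRNA, had log2 fold changes of 1.55 and 2.27, while Dkc1, the pseudouridine synthase of rRNA, averaged 191 ± 32.0 CPM in knockout and 504 ± 117 CPM in control oocytes (-1.40). Of 54 genes for assembly of the large subunit, 12 were higher (22.2%) and 3 lower (5.56%), with a median of 0.16, led by Nol9 (1.88), Ebna1bp2 (1.39) and Eif6, which keeps free large subunits from joining (1.88). A list of 29 tested genes held subunits of RNA polymerases I and III, which transcribe rRNA and tRNA, and their transcription factors. Of these 4 were higher (13.8%, close to the share of all tested genes) and 0 lower (median 0.60), and the 4 are the polymerase subunits Polr1d (1.00), Polr3a (1.07), Polr1b (3.71) and Polr3e (3.03). In the elongation and termination list and the polymerase list no gene was lower at an unadjusted p under 0.05 in edgeR or in DESeq2 either.

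Of 19 other tested mRNAs with a terminal oligopyrimidine motif, 4 were higher (21.1%) and 2 lower (10.5%), with a median log2 fold change of 0.28. Of the 4 higher genes Eef2, Eef1d and Eef1b2 were already counted among the elongation genes, and Eif3f (2.52) was not. Nap1l1, a histone chaperone, was lower (-0.75). Of 21 genes that regulate such mRNAs or phosphorylate Rps6, 0 were higher and 3 lower (14.3%, close to the 12.2% of all tested genes; median -0.22), namely Larp4b (-1.15), Larp4 (-0.80) and Rps6ka6 (-0.53). In this list 1 gene was higher at an unadjusted p under 0.05 in edgeR and 0 by DESeq2. Of 4 ubiquitin fusion and ribosome-associated genes 2 were tested and neither passed. Rack1, a scaffold on the small subunit, averaged 120 CPM in knockout and 113 CPM in control oocytes, and Rpl36al had an adjusted p of 0.0687.

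Annotated pseudogenes of ribosomal proteins matter because they share near-identical sequence with the members. Of 225 such genes, 108 had no count and 21 were tested. Of those 8 were higher (38.1%, against 13.6% of all tested genes) and 0 lower (against 12.2%), with a median log2 fold change of 1.16. At an unadjusted p under 0.05 in edgeR and by DESeq2, 0 were lower as well. The tested pseudogenes had a median level of 2.03 CPM, and one that entered the test through the knockout libraries alone was bound to look higher. Rpsa-ps10 averaged 11.5 ± 1.05 CPM in knockout and 0.562 ± 0.506 CPM in control oocytes (SD, n = 4 each), where Rpsa itself averaged 15.3 ± 1.52 CPM in knockout and 0.946 ± 0.384 CPM in control oocytes. Rpsa-ps11 averaged 2.36 ± 0.525 CPM in knockout and 0.109 ± 0.0765 CPM in control oocytes, and Rps13-ps1 averaged 1.11 CPM in knockout and had no count in control oocytes. Whether such reads came from the pseudogene or from its parent cannot be told apart in gene counts.

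Markers of cells that could cling to an oocyte were uneven, with many at 0 and a few well measured, and their summed levels were lower in knockout than in control oocytes. Of 25 cumulus and granulosa markers 11 had no count in any library, among them Amh, Foxl2, Lhcgr, Inha, Ptx3 and Tnfaip6, and the list summed to 141 to 203 CPM in knockout and 247 to 266 CPM in control oocytes. Esr2 and Cyp19a1 made up most of this sum in both groups. Esr2 averaged 63.0 ± 6.17 CPM in knockout and 109.7 ± 19.7 CPM in control oocytes (SD, n = 4 each). Cyp19a1 averaged 49.2 ± 19.7 CPM in knockout and 88.6 ± 15.1 CPM in control oocytes. Of the 7 tested genes 0 were higher and these 2 were lower (-0.80 and -0.85), which is 28.6%, against 12.2% of all tested genes. At an unadjusted p under 0.05 in edgeR or by DESeq2, 0 were higher. Of 23 markers of blood, stroma and oviduct 13 had no count, among them Hba-a2, Ptprc, Col1a2, Krt8 and the macrophage genes Lyz2 and Adgre1. The list summed to 36.1 to 59.5 CPM in knockout and 104 to 128 CPM in control oocytes. Pecam1 averaged 33.7 ± 9.10 CPM in knockout and 59.9 ± 12.6 CPM in control oocytes. Among the 5 tested genes of this list Epcam, Kdr and Pecam1 were lower (-3.46, -2.10 and -0.83) and the macrophage gene Cd68 was higher (2.55). These are 60% lower and 20% higher, where 12.2% and 13.6% of all tested genes were. The part of such cells in the ribosomal protein values was not tested.

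The authors' deposited table, which lists 2709 genes with adjusted p-values up to 0.009996, holds 19 of the 87 members, 17 as higher and 2 as lower. Over all its genes 1410 are listed as higher and 1299 as lower. In the authors' deposited table Rpl32, Rpsa and Rps3 have unshrunken log2 fold changes of 2.69, 3.97 and 3.98, and Rpl17 and Rps27l have -2.40 and -0.80. Rpl7a is not among the 19, and Rps4l is named Rps4y2 there.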

How the data were processed

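Reads were aligned and counted by the authors with tools that the submitters' processing notes name as GSNAP and featureCounts 1.4.4, on mm10, and compared with DESeq2 1.3.79. The deposited counts rest on Ensembl release 69, per the file headers, with reads of mapping quality 1 or more, no strand and no multiply mapped reads. Reads shared by near-identical copies were therefore lost, and genes that overlap on opposite strands cannot be told apart (25 members share exon bases with another gene). The deposited comparison holds the authors' log2 fold changes and p-values, and 16 of its per-sample columns were not used here. The kit has no molecular identifiers, so amplified copies count as separate reads.

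The deposited counts were tested in edgeR 4.0.16 (R 4.3.3) with TMM factors, filterByExpr, the quasi-likelihood test and Benjamini-Hochberg adjustment over all 11066 tested genes. Reported CPM use TMM-scaled library sizes, RPKM divide them by exon length, and an SE is the absolute log2 fold change divided by the square root of F. A gene name table gave symbols for 35449 identifiers. The fit was tested on simulated counts. Alternatives were other size factors (library totals, median of ratios), a length trend removed (loess, span 0.5), other filters, DESeq2 1.42.0, the replicate number as a block, each library left out in turn and an adjusted p of 0.01. All tested members that passed are named apart from 1 that is counted but not reported here by name or in the plots by gene, and every library is given for the 5 smallest p per subunit, all lower genes, the 2 most abundant per subunit by RPKM, the stalk genes, Rpsa, Rps6 and the paralog pairs. Other lists are given by counts, median and up to 3 genes of smallest p. The members and lists were chosen with earlier results of these data known.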

Additional observations from a re-analysis of the deposited data

Results flagged for a closer look

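Of 135 groups of 4 oocytes, taken over the tested and named ribosomal protein genes with more than 3 counts in a library, the sums by subunit with their ratios, and Setd1b, 3 held an oocyte far from the other 3, where chance alone marks about 1 group in 20. Rps14 stood at 53.9 CPM in knockout replicate 3, against 28.9 to 30.9 CPM in the other knockout oocytes. Rps15 stood at 4.198 CPM in control replicate 4, against 0 to 0.577 CPM in the other control oocytes. Rps26 stood at 3.30 CPM in control replicate 4, against 0.247 to 0.660 CPM in the other control oocytes. None of the 3 genes passed the test between knockout and control.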

How the results depend on the processing

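The calls of Rplp1, Rpl32, Rpl34, Rpl41, Rpl18, Rpl17, Rpsa, Rps2, Rps3, Rps4l, Rps9 and Rps25 held under every alternative that kept the gene in the test. Removal of the length trend cost the calls of Rpl8, Rpl22 and Rpl7a, no filter and DESeq2 that of Rpl7a, and the replicate block those of Rpl7, Rpl21 and Rpl7a. The numbers of all genes called higher and lower were 2377 and 510 with library totals, 747 and 644 at an adjusted p of 0.01, and lower 2331 with the length trend removed. Higher ribosomal protein genes numbered 11 at a minimum of 10 CPM in 4 libraries, where only 23 were tested, and 11 at an adjusted p of 0.01. With the 10 CPM minimum 1403 genes were higher and 1093 lower of all 6577 tested. The median log2 fold change was then 0.83 for the ribosomal protein genes, against 1.47 in the main fit, and 0.021 for all tested genes. Lower ribosomal protein genes numbered 1 with library totals, 5 with the length trend removed and 1 with the 10 CPM minimum. For the large subunit the higher genes numbered 6 with that minimum and 5 at an adjusted p of 0.01, and the lower ones 4 with the length trend removed and 0 with the minimum. For the small subunit 11 were higher and 0 lower with library totals. With 1 library left out, the counts ran from 12 to 21 higher ribosomal protein genes, 6 to 11 of the large and 6 to 10 of the small subunit (6 for the large subunit without knockout replicate 1, 10 for the small without control replicate 4), with 2 lower each time, and over all genes from 1012 to 1529 higher and 861 to 1241 lower (861 without knockout replicate 2).

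Same-numbered knockout and control oocytes did not deviate together (correlations of deviations -0.0753, -0.0313, -0.159 and -0.0634). Differently numbered ones ran from -0.116 to 0.148. The numbers were therefore not taken as pairs, though 4 oocytes per group cannot exclude a pairing. The fit with the replicate number as a block called 14 ribosomal protein genes higher, 8 of them of the large subunit, and 2 lower, and 1090 genes higher and 861 lower over the table. Under the block the log2 fold change of Setd1b was -1.46 (adjusted p = 0.0700). It was -1.04 with library totals (0.0887), -1.44 at the threshold of 0.01, and -1.57 to -1.33 with 1 library left out.

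Rpl39l turned to -0.51 with the length trend removed and to -0.071, -0.097 and -0.0067 without knockout replicate 3, control replicate 2 and control replicate 3 (range with 1 library left out -0.097 to 0.29). Rplp0 turned to -0.12 with the length trend removed, and Rps4x to 0.023 without control replicate 1 (range -0.91 to 0.023). None of these 3 genes passed in any of these fits, and the causes of these changes were not tested. Setd1b did not reach the 10 CPM minimum and has no value there. Genes with few counts limit the sizes given: 14 to 41 control counts for Rpl7a, Rpl21, Rpl39, Rps9, Rpl7 and Rpsa, and 7 for Rpl18.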
